A study of Mus musculus with 12 samples.

Results

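The miR-106b~25 cluster gives rise to 3 microRNAs, miR-106b, miR-93 and miR-25, and these 3 were followed here among the 611 mouse miRNAs of the array. They were chosen by name, as the array entries mmu-miR-106b, mmu-miR-93 and mmu-miR-25, and not by a threshold on any measured value. A microRNA is a short RNA that guides the silencing machinery to messenger RNAs pairing with its seed, the bases near its 5′ end. The hairpins of the cluster lie inside Mcm7, the gene of a subunit of the replicative helicase, and are transcribed with it. The cluster is a paralogue of miR-17~92 and of the X-linked miR-106a cluster, is known for restraining the cell cycle inhibitor p21 and the pro-apoptotic protein Bim, and has been described as repressed during endoplasmic reticulum stress in mouse cells.

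The study used C57BL/6 mouse embryonic fibroblasts with or without XBP1, which IRE1 signalling activates to induce genes of the unfolded protein response. Cultures were untreated (the wild type and knockout controls) or received 2 ug/mL tunicamycin, which blocks N-linked glycosylation in the endoplasmic reticulum, for 12 h or for 24 h. Each of the 6 groups had 2 one-colour microRNA arrays, from 2 experiments that the design text calls independent, and a number of arrays this small limits the precision of every value. The question named by the design was which miRNAs respond at 12 h in a way that depends on XBP1.

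In the RefSeq annotation of the build GRCm38.p6 the 3 hairpins span 498 bases on the minus strand of chromosome 5, all inside Mcm7. In the order of transcription Mir106b comes first, Mir93 follows after 126 bases and Mir25 after a further 118. The hairpins are shown because they give the arm each array entry reports, with the measured mature miRNA in capitals, at chr5:138165737-138165818, chr5:138165523-138165610 and chr5:138165321-138165404 in turn:
Mir106b: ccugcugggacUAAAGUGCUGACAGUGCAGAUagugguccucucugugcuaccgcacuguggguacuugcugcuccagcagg
Mir93: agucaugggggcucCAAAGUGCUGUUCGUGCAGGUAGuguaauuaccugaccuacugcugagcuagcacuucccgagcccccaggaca
Mir25: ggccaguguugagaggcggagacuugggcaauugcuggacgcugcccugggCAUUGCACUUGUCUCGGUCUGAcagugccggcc

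The mature miR-106b and miR-93 come from the 5′ arms and miR-25 from the 3′ arm. The mature sequences from RefSeq are set beside their closest detected relatives on the array, with the seed (bases 2 to 8 from the 5′ end) in capitals, to show which miRNAs share a seed:
mmu-miR-106b-5p: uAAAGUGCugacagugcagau
mmu-miR-93-5p: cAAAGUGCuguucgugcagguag
mmu-miR-20a-5p: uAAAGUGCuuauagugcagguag
mmu-miR-20b-5p: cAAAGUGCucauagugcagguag
mmu-miR-25-3p: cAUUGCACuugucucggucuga
mmu-miR-92a-3p: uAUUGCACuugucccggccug

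The seed of miR-106b and miR-93 is that of miR-20a and miR-20b, and the seed of miR-25 is that of miR-92a. Outside the seed the relatives stay close. Over the first 21 bases, miR-106b and miR-20a match at 18, the differences (the base of miR-106b, its position from the 5′ end, the base of miR-20a) being G10U, C12U and A20G. Over the same length miR-25 and miR-92a also match at 18, differing at C1U, U14C and U18C. Hybridisation of such near copies to each other's probes was not tested, so the level of each member is uncertain to that extent.

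Each member had 2 probes, each printed as 10 spots. The signal used here was the software's background-subtracted spot signal, averaged over a probe's spots without those called outliers and summed over the probes. The arrays were then brought to the same 75th percentile, taken over 95 mouse miRNAs that all 12 arrays detected, and log2 was taken. All 3 members were detected on all 12 arrays. Tests were made with limma in a fit over the 256 mouse miRNAs that were detected on each array of some group, and a change was called at an adjusted p under 0.05 (Benjamini-Hochberg over the 256).

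Across the arrays, the total mouse signal ran from 15850 to 187401 and the number of detected mouse miRNAs from 120 to 222. Of 11 fibroblast or mesenchymal marker miRNAs, 8 were detected on all 12 arrays, while none of the 6 blood and none of the 6 epithelial markers was detected on any. The endothelial, muscle, neural and embryonic stem lists had 1 detected miRNA each, and for the last of these, miR-294, detection was on the 4 arrays at 12 h. Its unscaled signal ran from 50.3 to 192 there and from 5.93 to 18.2 on the other 8 arrays. The muscle miRNA miR-206 was detected on those 4 and on both untreated knockout arrays, at 15.3 to 90.0 at 12 h and 1.17 to 31.0 elsewhere. The neural miR-9 was detected on both untreated knockout arrays (highest 75.9) and the endothelial miR-126-3p on 1 array (15.7). Summed fibroblast markers ran from 5305 to 17155 on the tunicamycin arrays and from 35488 to 84658 on the untreated ones. The part of these markers in the results was not tested. Xbp1 mRNA is not a target of this array, so the knockout label had no direct check here. All untreated arrays shared 1 slide and all tunicamycin arrays another, so the effects of slide and of tunicamycin cannot be told apart. Each array had 2 position indices. By the first index, wild type arrays lay at 1 and knockout arrays at 2 on every slide, so position and genotype cannot be told apart either. By the second index, the 12 h arrays lay at 1 and 4 and the 24 h arrays at 3 and 2 in both genotypes. Position and hours of tunicamycin therefore cannot be told apart on that slide. There were 4 scans, each holding both genotypes and 1 replicate of each of its groups. The 2 knockout arrays at 24 h were the least alike of any pair of replicates, with r = 0.877 over the 95 miRNAs against 0.960 to 0.995 in the other groups.

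Before scaling, every member was far dimmer on the tunicamycin arrays. Unscaled miR-106b ran from 411 to 607 on the 4 untreated arrays and from 52.4 to 233 on the 8 tunicamycin arrays. For miR-93 the ranges were 215 to 296 and 21.2 to 92.9. For miR-25 they were 325 to 393 and 51.5 to 167. None of the 3 members had an overlap between untreated and tunicamycin arrays, which also held, with the untreated arrays above, for 82.1% of the 95 miRNAs detected on all arrays and 59.4% of the 256. The ratios of geometric means, untreated over tunicamycin, were 4.67 for miR-106b, 5.33 for miR-93 and 3.89 for miR-25. The whole arrays were dimmer too, the scale factors running from 0.318 on an untreated knockout array to 3.78 on a wild type array at 24 h. Equal masses of total RNA were labelled, so a smaller share of miRNA in that RNA, weaker labelling and a dimmer slide cannot be told apart. In bulk RNA, neither can fewer cells of a type and less of a miRNA in each. The values that follow are relative to the other miRNAs of the same array.

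**Figure D1:**
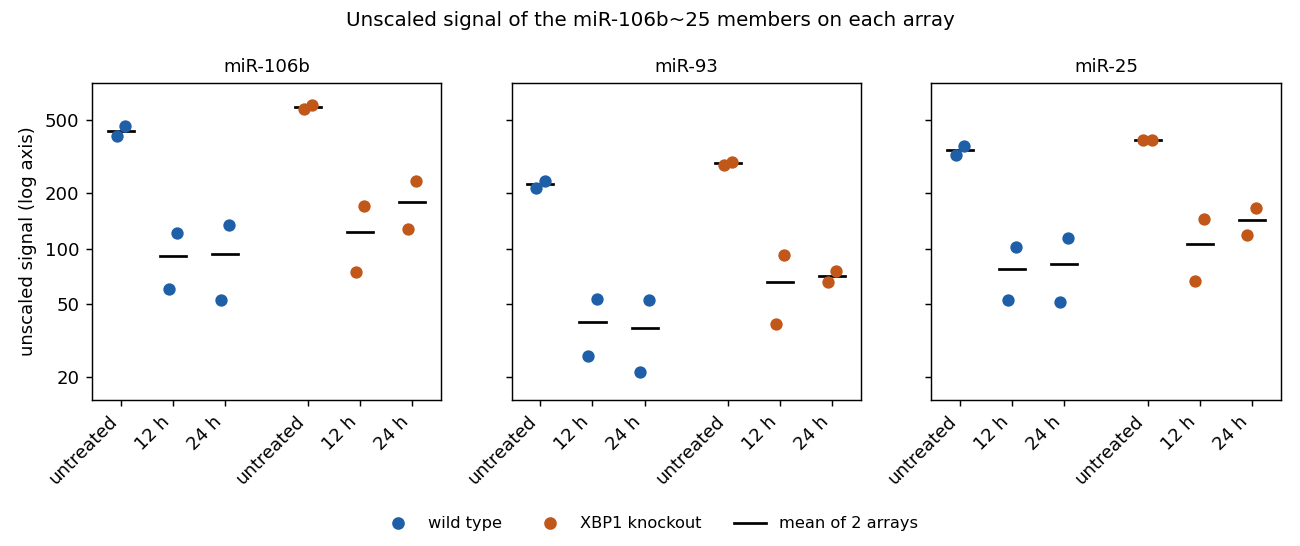
Unscaled signal of each member (log axis) on every array, by genotype and hours of 2 ug/mL tunicamycin, with points for single arrays and bars for the mean of 2 arrays. The untreated arrays, from 215 for miR-93 to 607 for miR-106b, lie above every tunicamycin array of the same miRNA.

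After scaling, miR-106b was 239 and 230 in untreated wild type cells, 130 and 141 at 12 h and 198 and 201 at 24 h. In knockout cells it was 186 and 193 untreated, 130 and 122 at 12 h and 183 and 314 at 24 h. The 12 h arrays were the lowest in both genotypes, and the 2 knockout arrays at 24 h were the highest of all 12 arrays and the lowest outside the 12 h groups. From highest to lowest on the log2 scale, the group means were 7.91 ± 0.55 (SD, n = 2) in knockout at 24 h, 7.87 ± 0.04 in untreated wild type, 7.64 ± 0.02 in wild type at 24 h, 7.56 ± 0.04 in untreated knockout, 7.08 ± 0.08 in wild type at 12 h and 6.98 ± 0.06 in knockout at 12 h. The first group overlapped the next 3, and the wild type and knockout arrays at 12 h overlapped each other.

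The scaled signal of miR-93, which shares the seed of miR-106b, was 125 and 116 in untreated wild type cells, 55.9 and 61.7 at 12 h and 80.3 and 78.7 at 24 h. Knockout cells gave 92.6 and 94.1 untreated, 68.2 and 66.3 at 12 h and 94.7 and 102 at 24 h. No 2 groups overlapped for this member. The order of the group means was untreated wild type at 6.91 ± 0.08 (log2, SD, n = 2), knockout at 24 h at 6.62 ± 0.07, untreated knockout at 6.54 ± 0.02, wild type at 24 h at 6.31 ± 0.02, knockout at 12 h at 6.07 ± 0.03 and wild type at 12 h at 5.88 ± 0.10. Knockout at 24 h and untreated knockout, next to each other in that order, differed by 0.07, less than the SE of 0.11.

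The last of the 3 hairpins gives miR-25, which had a scaled signal of 189 and 180 in untreated wild type cells, 113 and 117 at 12 h and 195 and 172 at 24 h. In knockout cells the values were 127 and 124 untreated, 117 and 104 at 12 h and 171 and 225 at 24 h. On the log2 scale the groups fell into a higher set, knockout at 24 h (7.62 ± 0.28, SD, n = 2), untreated wild type (7.53 ± 0.05) and wild type at 24 h (7.52 ± 0.13), whose arrays overlapped. The lower set held untreated knockout (6.97 ± 0.02), wild type at 12 h (6.85 ± 0.04) and knockout at 12 h (6.79 ± 0.12), and in it the 12 h groups overlapped.

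**Figure D2:**
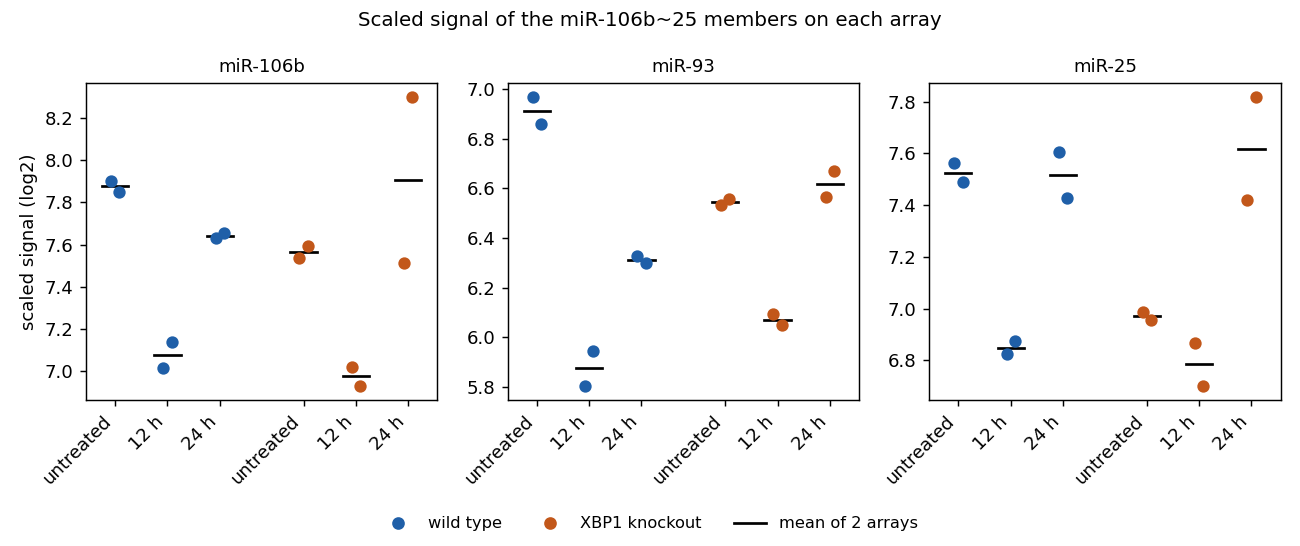
Scaled signal (log2) of each member on every array, by genotype and hours of 2 ug/mL tunicamycin, with points for single arrays and bars for the mean of 2 arrays. Each panel has its own axis. In all 3 panels the wild type arrays at 12 h sit below the untreated wild type arrays, and the knockout arrays at 24 h are widest apart for miR-106b, at 183 and 314 on the linear scale.

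All 3 members fell in wild type cells at 12 h of tunicamycin. The level of miR-93 fell by 1.04 on the log2 scale (SE 0.11, limma adjusted p = 0.000504), that of miR-106b fell by 0.80 (SE 0.22, adjusted p = 0.0225) and that of miR-25 fell by 0.68 (SE 0.15, adjusted p = 0.00745). These are 2.05-fold, 1.74-fold and 1.60-fold lower scaled signals, and the 2 arrays of each group did not overlap for any member. Lower calls were common at this time: 25.4% of the 256 tested miRNAs fell, and 35.8% of the 95 detected on all arrays did. The median difference was -0.80 over the members, -0.42 over the 95 and -0.09 over the 256.

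With scan as a random block the adjusted p in wild type at 12 h was 0.0231 for miR-106b, 0.000472 for miR-93 and 0.00860 for miR-25. Without any 1 of the 4 wild type arrays of this comparison miR-106b missed the threshold, with an adjusted p of at most 0.0922, and miR-93 and miR-25 stayed past it. Where a group is left with 1 array, here and further on, its spread is taken from the other groups, which the lone array is assumed to share. Equalising the medians of the 95 miRNAs instead of their 75th percentiles brought the differences to -0.48 for miR-106b, -0.72 for miR-93 and -0.36 for miR-25, with adjusted p of 0.0289, 0.00269 and 0.0149. Under normexp background correction none of the 3 was called, and miR-93 turned to 0.34 and miR-25 to 0.15, in a fit where the median of all 256 stood at 1.23. Quantile normalization gave larger falls, -1.82, -2.08 and -1.78 for miR-106b, miR-93 and miR-25, and the percentile over all mouse miRNAs gave -1.37, -1.61 and -1.25. With the deposited log2 values miR-93 was called higher, at 2.03, and miR-25 stood at 1.26.

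In XBP1 knockout cells at 12 h 1 of the 3 members passed the threshold, miR-93, which fell by 0.47 (SE 0.11, limma adjusted p = 0.0114). The difference of miR-106b was -0.59 (SE 0.22, adjusted p = 0.0637) and that of miR-25 was -0.19 (SE 0.15, adjusted p = 0.357). Of the 256 tested miRNAs 25.4% were called lower and of the 95 detected on all arrays 36.8% were, and the median over the 95 was -0.44, against -0.47 over the members. The knockout members thus lay near the middle of the detected miRNAs, and under median scaling miR-93 stood at 0.01, miR-106b at -0.10 and miR-25 at 0.30 (adjusted p = 0.0304, higher). The call of miR-93 was also lost without either untreated knockout array or without the second knockout array at 12 h, the highest adjusted p being 0.0831. Without 1 of the 24 h knockout arrays, whichever it was, miR-106b was called as well (adjusted p = 0.000524 at the lower), in fits that called 143 and 144 of the 256 miRNAs in place of 126. Quantile normalization called all 3 lower, at -1.33, -1.21 and -1.03 for miR-106b, miR-93 and miR-25, and so did the percentile over all mouse miRNAs, at -1.42, -1.31 and -1.02. These fits called 105 and 100 of the 256 lower. With the deposited log2 values miR-93 was called higher, at 2.08, and miR-106b lower, at -0.77 (adjusted p = 0.0265).

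The 12 h responses of the genotypes, wild type minus knockout, differed by -0.56 for miR-93 (SE 0.16, limma adjusted p = 0.119), by -0.49 for miR-25 (SE 0.21, adjusted p = 0.345) and by -0.21 for miR-106b (SE 0.32, adjusted p = 1). None of the 3 members was called, where 5.86% of the tested miRNAs were. At an unadjusted p under 0.05 it was 2 of the 3, miR-93 and miR-25, and 37 of the 256. The 95% intervals, unadjusted, ran from -0.94 to -0.19 for miR-93, from -0.98 to -0.003 for miR-25 and from -0.96 to 0.54 for miR-106b. Under median scaling the value for miR-25 was -0.66 and was called (adjusted p = 0.0262). Quantile normalization gave -0.87 for miR-93 and -0.75 for miR-25, neither called. Normexp background correction gave -0.04 for miR-93, -0.23 for miR-25 and -0.05 for miR-106b, none called. With the percentile over all mouse miRNAs the values were -0.30, -0.23 and 0.05, none called. The deposited log2 values gave -0.05 for miR-93 and 1.63 for miR-25, neither called. Without either knockout array at 24 h miR-93 was called at the same -0.56, with adjusted p of 0.0405 and 0.0368, in fits that called 23 of the 256 in place of 15.

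The untreated arrays entered that difference. Untreated knockout cells had lower values of miR-25 than untreated wild type cells, a log2 difference of -0.55 (SE 0.15, limma adjusted p = 0.0509), with differences of -0.37 for miR-93 (SE 0.11, adjusted p = 0.0925) and -0.31 for miR-106b (SE 0.22, adjusted p = 0.635). No member passed the threshold, against 12.5% of the tested miRNAs, while 2 of 3 had an unadjusted p under 0.05. The differences within the 2 scans of untreated arrays were -0.58 and -0.53 for miR-25, -0.44 and -0.30 for miR-93 and -0.36 and -0.26 for miR-106b. With scan as a fixed block the adjusted p of miR-25 was 0.129, and with scan as a random block 0.0456. Without either knockout array at 24 h the SE of every member was smaller and all 3 were called lower, with adjusted p of at most 0.0264. Calls over the 256 rose from 32 to 56 in these fits.

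At 12 h of tunicamycin the genotypes lay closer together in the signal used here. Knockout minus wild type was -0.10 for miR-106b, 0.20 for miR-93 and -0.06 for miR-25, with SEs of 0.22, 0.11 and 0.15 and limma adjusted p of 1, 0.489 and 1. No member was called, where 5.08% of the 256 were, and none had an unadjusted p under 0.05. Within the first scan the differences were 0.002 for miR-106b, 0.29 for miR-93 and 0.05 for miR-25, and within the second they were -0.21, 0.10 and -0.17.

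At 24 h of tunicamycin the calls of the members in wild type cells differed, and the members were not tested against each other. The level of miR-93 was still lower than untreated, at a difference of -0.60 (SE 0.11, limma adjusted p = 0.0108), while miR-106b differed by -0.23 (SE 0.22, adjusted p = 0.614) and miR-25 by -0.01 (SE 0.15, adjusted p = 1). This was 1 of 3 members called lower, against 14.8% of the tested miRNAs and 12.6% of the 95. Under normexp background correction none was called, at 0.20 for miR-106b, 0.45 for miR-93 and 0.41 for miR-25. In that fit the median of all 256 stood at 1.16, and 184 of them were called higher. With the deposited log2 values miR-93 was called higher, at 2.43. The call of miR-93 was lost without either untreated wild type array, with an adjusted p of at most 0.105. It was also lost under quantile normalization, where the difference was -0.74, and with the percentile taken over all mouse miRNAs, where it was -0.46. Without either knockout array at 24 h miR-106b was called too, at -0.23 (adjusted p of at most 0.0357), where calls over the 256 rose from 45 to 75 and 77.

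Knockout cells at 24 h had 1 of 3 members called higher than untreated, miR-25, by 0.65 (SE 0.15, limma adjusted p = 0.0268), where 3.12% of the tested miRNAs and 8.42% of the 95 were called higher. The differences of miR-106b, 0.34 (SE 0.22, adjusted p = 0.511), and miR-93, 0.07 (SE 0.11, adjusted p = 0.893), did not pass. For miR-106b and miR-25 much of the spread came from the 2 knockout arrays at 24 h. Without the first of them the difference of miR-106b was 0.73 (adjusted p = 0.0011), and without the second it was -0.05 (adjusted p = 0.950). That of miR-25 was 0.85 and 0.45, called in both, while calls over the 256 rose from 36 to 63 and 57. The call of miR-25 did not hold without any 1 of the untreated arrays or without the first 12 h array of wild type, where its adjusted p reached 0.155, nor under quantile normalization, with the percentile over all mouse miRNAs or with all mouse miRNAs tested. With the deposited log2 values its difference was 0.46 (adjusted p = 0.623).

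**Figure D3:**
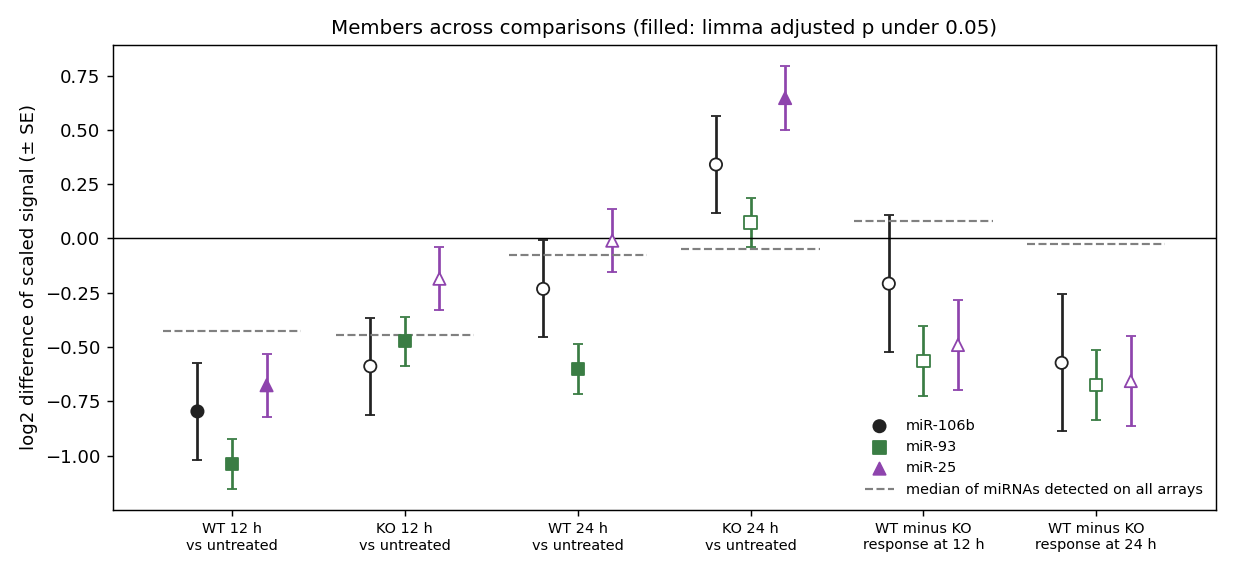
Log2 differences of the 3 members (points, with bars of ± 1 SE of the limma fit) in the 4 comparisons with untreated cells and in the 2 comparisons of the genotypes' responses, filled where the adjusted p was under 0.05. The dashed lines give the median of the miRNAs detected on all arrays, and in wild type at 12 h all 3 filled points lie below it, at -0.80, -1.04 and -0.68 against -0.42.

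The genotypes' 24 h responses differed by similar amounts for the 3 members, wild type minus knockout being -0.57 for miR-106b (SE 0.32, limma adjusted p = 0.619), -0.67 for miR-93 (SE 0.16, adjusted p = 0.0650) and -0.66 for miR-25 (SE 0.21, adjusted p = 0.146). No member was called, where 4.69% of the tested miRNAs were, and 2 of the 3 had an unadjusted p under 0.05, as did 30 of the 256. Without the first knockout array at 24 h all 3 were called, with differences of -0.96, -0.73 and -0.86. Without the second only miR-93 was called, at -0.62 (adjusted p = 0.0438), beside -0.18 for miR-106b and -0.46 for miR-25. Calls over the 256 rose with them, from 12 to 44 and 20. Under median scaling miR-93 (-0.77, adjusted p = 0.0494) and miR-25 (-0.75, adjusted p = 0.0163) were called. Quantile normalization gave -0.75 for miR-106b, -0.96 for miR-93 and -0.97 for miR-25, none called. Normexp background correction gave smaller differences, -0.32, -0.22 and -0.44 in the same order, none called. The deposited log2 values gave -0.66, 0.09 and 0.14, none called.

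Knockout minus wild type at 24 h was 0.26 for miR-106b, 0.30 for miR-93 and 0.10 for miR-25, with SEs of 0.22, 0.11 and 0.15 and limma adjusted p of 0.661, 0.195 and 0.920. None was called, against 7.81% of the tested miRNAs, and 1 of 3, miR-93, had an unadjusted p under 0.05. The 2 scans disagreed in sign for miR-106b, at -0.12 and 0.64, and for miR-25, at -0.19 and 0.39. For miR-93 they gave 0.24 and 0.37. Without the first knockout array at 24 h miR-106b was called higher, by 0.65 (adjusted p = 0.00167), where 58 of the 256 were called in place of 20.

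Levels at 24 h were set against those at 12 h on arrays of 1 slide, where position and time cannot be told apart. In knockout cells all 3 were called higher, miR-106b by 0.93 (SE 0.22, limma adjusted p = 0.0183), miR-25 by 0.83 (SE 0.15, adjusted p = 0.00571) and miR-93 by 0.55 (SE 0.11, adjusted p = 0.0121). Higher calls made up 17.6% of the tested miRNAs and 40% of the 95 detected on all arrays in that comparison, and the median over the 95 was 0.50. Within the 2 scans miR-106b rose by 0.49 and 1.36, miR-25 by 0.55 and 1.11 and miR-93 by 0.47 and 0.62. With scan as a fixed block the adjusted p were 0.0372, 0.0256 and 0.0302. Without the second knockout array at 12 h, 1 of the 3 was called. Median scaling left the difference of miR-93 at 0.23 (adjusted p = 0.220), and the deposited log2 values left it at 0.26 (adjusted p = 0.461) and miR-25 at 0.83 (adjusted p = 0.256). Quantile normalization gave larger differences, 1.67, 1.43 and 1.75 for miR-106b, miR-93 and miR-25, and the percentile over all mouse miRNAs gave 1.99, 1.60 and 1.89.

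In wild type cells 2 of 3 members were called higher at 24 h than at 12 h, miR-25 by 0.67 (SE 0.15, limma adjusted p = 0.0184) and miR-93 by 0.44 (SE 0.11, adjusted p = 0.0321), against 3.12% of the tested miRNAs and 8.42% of the 95. The difference of miR-106b was 0.56 (SE 0.22, adjusted p = 0.127), and the median over the 95 was 0.36. Within the scans the differences were 0.78 and 0.55 for miR-25, 0.52 and 0.35 for miR-93 and 0.61 and 0.52 for miR-106b. With scan as a fixed block neither call held, the adjusted p being 0.0518 for miR-25 and 0.0656 for miR-93. Leaving out the first array of wild type at 12 h, the second, or the first at 24 h also left 0 members called, and leaving out either knockout array at 24 h gave 3, in fits that called 88 of the 256 in place of 56. All 3 were also called under quantile normalization, at 1.40, 1.34 and 1.53 for miR-106b, miR-93 and miR-25, and with the percentile over all mouse miRNAs, at 1.28, 1.15 and 1.38. These fits called 63 and 47 of the 256 higher, in place of 8. Median scaling left miR-93 at 0.19 (adjusted p = 0.395), and with the deposited log2 values no member was called and miR-25 stood at -0.66. Without scaling no member was called in either genotype between the 2 times, and miR-106b and miR-93 of wild type turned to -0.03 and -0.16. In that fit 0 of the 256 were called higher in either genotype, and the wild type median was -0.24.

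The members did not change by equal amounts in the signal used here, which differences within an array show without any scaling between arrays. In untreated cells the log2 signal of miR-93 minus that of miR-25 was -0.59 and -0.63 (wild type) or -0.45 and -0.40 (knockout). The wild type differences were -1.02 and -0.93 at 12 h and -1.28 and -1.13 at 24 h. Those of the knockout were -0.78 and -0.65 at 12 h and -0.85 and -1.15 at 24 h. In this signal every tunicamycin array thus had less miR-93 for its miR-25 than every untreated array, with the closest pair at -0.63 and -0.65. This was noticed in the data, and how many other pairs of miRNAs part in this way was not counted. Since 2 probes differ in how they bind, the size of such a difference has no meaning as a ratio of molecules, and its shift is what is described. Within-array differences still depend on background subtraction. Under normexp background correction, miR-93 and miR-25 differed from untreated by 0.34 and 0.15 in wild type at 12 h. They differed by 0.39 and 0.37 in knockout at 12 h and by 0.45 and 0.41 in wild type at 24 h. Only knockout at 24 h, at 0.67 and 0.85, kept a lower miR-93 for its miR-25.

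Set against miR-106b in the signal used here, the shift of miR-93 differed in direction between the genotypes at 12 h. The difference miR-93 minus miR-106b moved in wild type from -0.93 and -0.99 untreated to -1.21 and -1.19 at 12 h and -1.30 and -1.36 at 24 h. In knockout it was -1.01 and -1.04 untreated, -0.93 and -0.88 at 12 h and -0.95 and -1.63 at 24 h. The wild type arrays moved down and the knockout arrays at 12 h up, by less, while the 2 knockout arrays at 24 h lay on opposite sides of the untreated ones. For miR-25 minus miR-106b, the values rose from -0.34 and -0.36 to -0.20 and -0.26 at 12 h in wild type, and from -0.55 and -0.64 to -0.15 and -0.23 in knockout. These shifts were noticed in the data and were not tested.

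**Figure D4:**
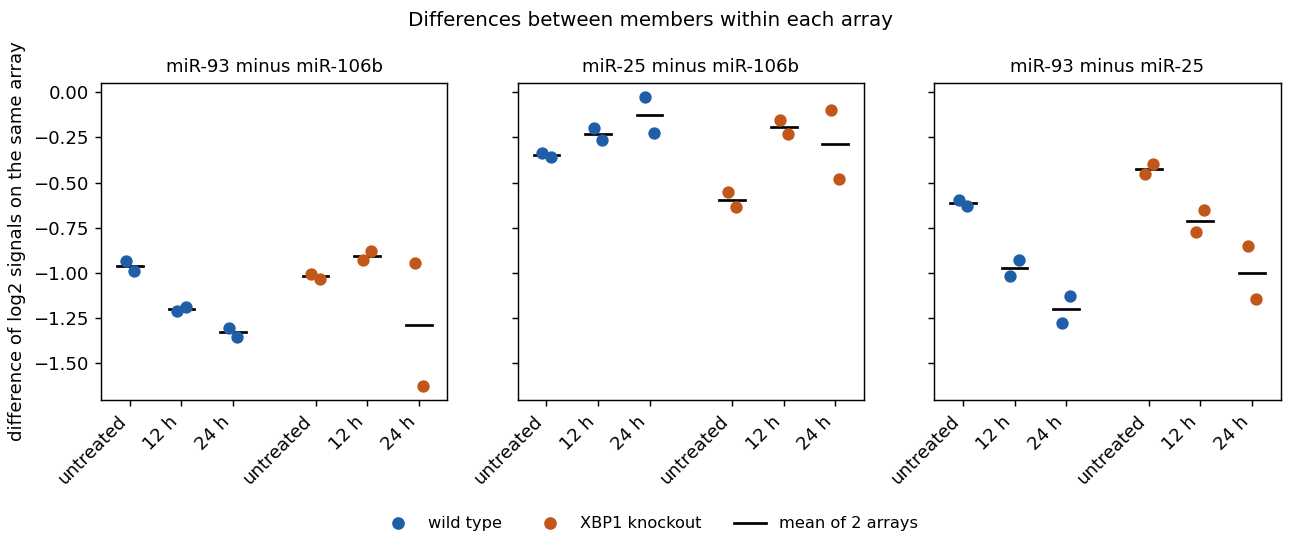
Difference between the log2 signals of 2 members on the same array, for each pair of members, by genotype and hours of 2 ug/mL tunicamycin, with points for single arrays and bars for the mean of 2 arrays. For miR-93 minus miR-25 the untreated arrays lie between -0.63 and -0.40 and the tunicamycin arrays between -1.28 and -0.65.

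The 2 probes of a member differed in brightness. The dimmer probe of miR-106b was well above background in 73 of 76 spots on the tunicamycin arrays, that of miR-25 in 17 of 77 and that of miR-93 in 0 of 80, whereas all spots of the 3 brighter probes were. On the untreated arrays the dimmer probes were well above background in 39 of 39, 37 of 37 and 34 of 38 spots. The brighter probes alone gave -0.77 for miR-106b, -0.96 for miR-93 and -0.58 for miR-25 in wild type at 12 h, and -0.53, -0.43 and -0.14 in knockout. For miR-93 the dimmer probe gave -2.15 in wild type and -0.93 in knockout, values that are bounded by background on the tunicamycin side.

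The log2 values that the authors deposited for the 3 members were not the sums of their probe signals on every array. The deposited number was, to within 1.15e-06, log2 of what the software reports as total gene signal. For miR-106b that gene signal was 1.0 times the sum of the software's probe signals on all 12 arrays. For miR-93 it was 1.0 times the sum on the 4 untreated arrays and between 4.26 and 9.94 times the sum on the 8 tunicamycin arrays. For miR-25 it was between 3.39 and 4.03 times the sum on both wild type arrays at 12 h and the first at 24 h, and 1.0 times on the other 9.

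The arrays with a raised ratio had few spots of the dimmer probe above background: none on any of the 8 for miR-93, and 0, 0 and 1 on the 3 for miR-25. However, 3 other tunicamycin arrays with 0 or 1 such spots for miR-25 had a ratio of 1.0. The dimmer probe of miR-106b had at least 7 such spots on every array. The part of the dimmer probe in the software's gene signal was not tested. Among all detected mouse miRNAs the ratio exceeded 1.5 for between 25.3% and 39.2% of them per array.

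With the deposited log2 values, scaled and tested in the same way, miR-93 was higher at 12 h, by 2.03 in wild type (limma adjusted p = 0.000357) and by 2.08 in knockout (adjusted p = 0.000258). At 24 h it was higher by 2.43 and by 2.35. The value of miR-25 in wild type at 12 h was 1.26 (adjusted p = 0.0699), and that of miR-106b stayed lower at -0.87 (adjusted p = 0.0197). The difference between the genotypes' 12 h responses was then -0.05 for miR-93, 1.63 for miR-25 and -0.10 for miR-106b, none of them called. The direction of miR-93 under tunicamycin thus depended on which of the deposited quantities was read.

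**Figure D5:**
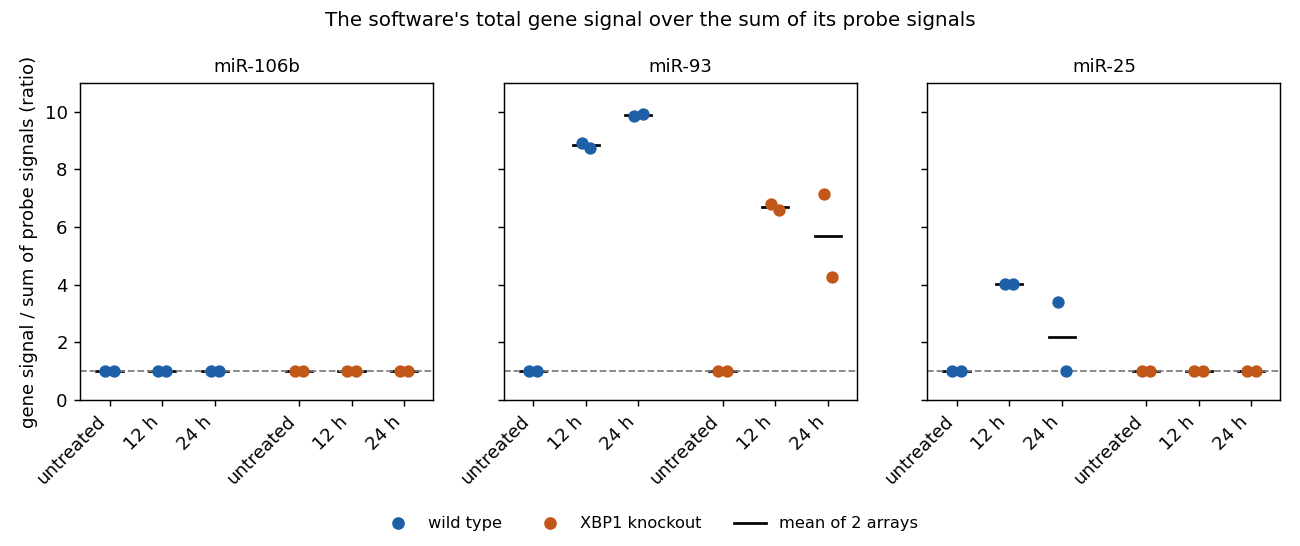
Ratio of the software's total gene signal, whose log2 is the deposited value, to the sum of its probe signals, for each member on every array, with points for single arrays and bars for the mean of 2 arrays. The dashed line marks a ratio of 1, on which all arrays lie for miR-106b, while the 8 tunicamycin arrays of miR-93 lie between 4.26 and 9.94.

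The paralogous clusters gave no call. Of the 6 mature miRNAs listed for miR-17~92, the founding cluster of the family, 5 were tested, and 0 rose and 0 fell in each of the 11 comparisons, which called between 12 and 130 of the 256 tested miRNAs. Its median difference was -0.25 in wild type at 12 h and 0.08 in knockout at 12 h, against -0.42 and -0.44 over the 95 miRNAs detected on all arrays. For 24 h against 12 h it was 0.62 in wild type and 0.16 in knockout, against 0.56 and 0.83 over the members. In untreated knockout against wild type it was -0.47, against -0.37 over the members. For the differences between responses it was -0.35 at 12 h and 0.16 at 24 h, against -0.49 and -0.66 over the members. The values with the smallest p in wild type at 12 h were -0.42 for miR-18a (SE 0.33, limma adjusted p = 0.338), -0.27 for miR-19a (SE 0.28, adjusted p = 0.468), -0.25 for miR-20a (SE 0.32, adjusted p = 0.593) and -0.16 for miR-19b (SE 0.24, adjusted p = 0.635). At 24 h in wild type miR-92a was 0.59 (SE 0.22, adjusted p = 0.128). These SEs include the disagreement of the 2 knockout arrays at 24 h.

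For the X-linked miR-106a cluster, 5 of 6 listed miRNAs were on the array under these names and 3 were tested, miR-20b, miR-19b and miR-92a, the latter 2 of which miR-17~92 also encodes. None of the 3 was called in any comparison. The seed relatives of miR-106b and miR-93 that could be tested were miR-20a and miR-20b, with a median of -0.30 in wild type at 12 h and 0.06 in knockout at 12 h. The single tested seed relative of miR-25 was miR-92a, at -0.03 (SE 0.22, adjusted p = 0.990) and 0.32 (SE 0.22, adjusted p = 0.299). The entries for miR-17, miR-18b, miR-32, miR-363, miR-367 and miR-92b were detected on none of the 12 arrays.

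The passenger strands, the opposite arms of the same hairpins, were below detection. Of the 3, miR-106b* and miR-93* were on the array and were detected on none of the 12 arrays, and no entry named miR-25* was found.

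The 3 members varied together over the 12 arrays, with r = 0.90 between miR-106b and miR-25, 0.84 between miR-106b and miR-93 and 0.71 between miR-93 and miR-25. Points of such a correlation share the scaling of an array and fall into treated and untreated sets. On the 8 tunicamycin arrays alone the values were 0.96, 0.86 and 0.89. Among the other 92 miRNAs detected on all arrays, those most like the mean of the members were let-7g (r = 0.950), miR-16 (0.897), miR-15a (0.890), let-7f (0.862) and let-7i (0.841). In wild type at 12 h these 5 differed by -0.68, -0.85, -0.77, -0.44 and -0.88, of which all but let-7f passed the threshold. The relatives from the paralogous clusters ranked from the 57th place, miR-18a (r = 0.220), to the 72nd, miR-20b (r = 0.046), of the 92.

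The start region of Mcm7 is shown because the 3 members are transcribed with that gene and fell together in wild type at 12 h. RefSeq has 2 starts, and the 300 bases from 250 before to 50 after the first lie at chr5:138171834-138172133 on the minus strand (GRCm38.p6), with matches to the motifs named next in capitals:
Mcm7: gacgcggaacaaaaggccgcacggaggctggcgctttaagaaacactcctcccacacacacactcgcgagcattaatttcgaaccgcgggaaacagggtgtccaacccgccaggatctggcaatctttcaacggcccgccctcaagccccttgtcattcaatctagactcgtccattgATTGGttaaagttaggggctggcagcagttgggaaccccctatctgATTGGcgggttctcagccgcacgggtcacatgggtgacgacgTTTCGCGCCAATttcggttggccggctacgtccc

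The search covered both strands. The E2F motif TTTCGCGC, which is bound by factors of the cell cycle, had 1 match, against 0.323% of 32851 promoters of the same length, and it overlaps a CCAAT box. The CCAAT box (CCAAT) had 3 matches, and 37.4% of promoters hold at least 1. The other E2F form TTTGGCGC (0.514% of promoters) and the unfolded protein response elements TGACGTGG (0.676%) and TGACGTGA (0.441%) had no match in this window. The window of the second start held 1 CCAAT box and none of the others. A match is a run of letters and not a measured site.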

How the data were processed

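Per the labels' protocols, 100 ng of total RNA was labelled with Cy3 and hybridised to one-colour Agilent microRNA arrays. The scanner files, as deposited, give the intensity of every spot from Agilent Feature Extraction 10.7.1.1, background-subtracted and detrended, with no normalization between arrays per the file headers. Deposited log2 values, 1 per miRNA and array, came with the series table and served as an alternative.

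The members and lists were chosen with earlier results of these data known. Named miRNAs were the 3 members, their passenger arms, members of 4 lists of relatives (up to 4 with the smallest p per comparison) and the 5 most alike. Signals were recomputed from 13000 non-control spots. Scaled signals had a floor at the 5th percentile of detected ones (10.0, which is 3.33 in log2). limma 3.58.1 in R 4.3.3 fitted 1 mean per group over all 12 arrays with an intensity trend (6 residual degrees of freedom, prior 0.981) for 11 comparisons. The fit was tested on simulated data. The mean spot signal is not in the scanner files used here, so normexp (offset 50) used the median signal. Replicate numbers did not pair the arrays over all groups: deviations from group means had r from -0.55 to 0.87 over the 15 pairs of groups, 6 of them over 0.1. Both genotypes at 1 time share a scan, and there r was 0.87 untreated, 0.42 at 12 h and 0.52 at 24 h, so values with scan as a block and within scans are given. Alternatives were 27 planned and 3 chosen after seeing the data. Probe sequences were not used here.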

Additional observations from a re-analysis of the deposited data

Results flagged for a closer look

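Both entries concern a deposited quantity that the comparisons do not use, the software's total gene signal, because on tunicamycin arrays its ratio to the sum of the probe signals exceeded that ratio on the untreated arrays. For miR-93 the gene signal was up to 9.94 times the sum of its probe signals, against 1.0 on the untreated arrays. For miR-25 it was up to 4.03 times the sum, against 1.0 on the untreated arrays. The cause was not tested. With groups of 2 arrays, no array could be tested as an outlier within its group.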

How the results depend on the processing

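With 2 arrays a group, 1 library decides many calls, and slide cannot be told apart from treatment. Of 396 member values that left out 1 array, 6 changed direction, but an array outside a comparison cannot change its difference. Of 582 under other settings 456 kept direction and side of the threshold. That count holds the total gene signal and the deposited values, which gave the same results, as 2 settings. It also holds the blocks, the intensity trend and the set tested, which leave a difference as it was. Neither total therefore measures robustness. Values are log2 differences, and the cause of each change was not tested.

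Leaving out 1 array, the number of members called ranged from 2 to 3 in wild type at 12 h, 0 to 2 in knockout at 12 h, 0 to 2 in wild type at 24 h, 0 to 2 in knockout at 24 h, 0 to 1 and 0 to 3 for the difference between responses at 12 h and at 24 h, 0 to 3 and 1 to 3 for 24 h against 12 h in wild type and in knockout, and 0 to 3 and 0 to 1 for knockout against wild type untreated and at 24 h. Values that crossed zero ranged from -0.15 to 0.019 (miR-25, knockout against wild type at 12 h), from -0.051 to 0.73 (miR-106b, knockout at 24 h), from -0.13 to 0.65 and from -0.10 to 0.30 (miR-106b and miR-25, knockout against wild type at 24 h) and from -0.10 to 0.078 (miR-25, wild type at 24 h).

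Replicate numbers did not pair the arrays across slides. With the replicate block 1 member was called in wild type at 24 h against 12 h (miR-25; miR-93 had an adjusted p of 0.0514), and no other call changed. With scan as a fixed block that count was 0. With scan as a random block 1 member was called in untreated knockout against wild type, where 35 of the 256 were.

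With the software's total gene signal, and equally with the deposited log2 values, 2 members were called in wild type and 2 in knockout at 12 h, 0 and 1 at 24 h against 12 h, and 1 in knockout against wild type at 12 h (miR-25, at -2.24). Of the 256 miRNAs these values called 111 and 128 at 12 h, 45 and 80 at 24 h against 12 h, and 26 in knockout against wild type at 12 h. In knockout at 24 h miR-93, at 2.35, was called in place of miR-25, at 0.46. The values of miR-93 turned to 2.03 and 2.08 at 12 h and to 2.43 in wild type at 24 h, to 0.088 for the difference between 24 h responses, and to -0.37 and -0.51 for knockout against wild type at 12 h and 24 h. Those of miR-25 turned to 1.26 and 0.60 in wild type at 12 h and 24 h, to 1.63 and 0.14 for the differences between responses, to -0.66 in wild type at 24 h against 12 h and to -0.75 for knockout against wild type at 24 h.

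With normexp 0 members were called in wild type and 0 in knockout at 12 h, 0 and 2 at 24 h, and 0 in both genotypes at 24 h against 12 h. Of the 256 miRNAs that fit called 181 and 164 higher in wild type and knockout at 12 h, and 184 and 178 at 24 h. Under normexp miR-93 turned to 0.34, 0.39 and 0.45 (wild type and knockout at 12 h, wild type at 24 h) and to -0.38 and -0.20 (knockout against wild type at 12 h and 24 h), miR-25 to 0.15, 0.37, 0.41 and, at 24 h between genotypes, -0.11, and miR-106b to 0.20 in wild type at 24 h and -0.0082 (knockout against wild type at 24 h). The medians of all 256 were 1.23 and 0.89 in wild type and knockout at 12 h, and 1.16 and 1.08 at 24 h. For knockout against wild type they were -0.56 at 12 h and -0.48 at 24 h.

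Without scaling 3 members were called in knockout at 12 h and 3 in each genotype at 24 h, all lower, and 0 at 24 h against 12 h. Lower calls were general in that fit: 157 of the 256 miRNAs in knockout at 12 h, 144 in wild type at 24 h and 173 in knockout at 24 h. Knockout at 24 h turned to -1.78 (miR-106b), -2.05 (miR-93) and -1.47 (miR-25), where the median of all 256 was -1.825. Untreated knockout against wild type turned to 0.44, 0.38 and 0.19, and at 12 h miR-106b to 0.40 and miR-25 to 0.43. The medians of all 256 were 0.51 untreated and 0.13 at 12 h. The difference between 12 h responses of miR-106b was 0.043, and wild type at 24 h against 12 h was -0.032 (miR-106b) and -0.16 (miR-93). The medians of all 256 in these comparisons were 0.33 and -0.24.

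Quantile normalization gave 3 called in knockout at 12 h and 0 in each genotype at 24 h, 3 in wild type at 24 h against 12 h (1.40, 1.34 and 1.53), with miR-25 at 0.0089 for knockout against wild type at 12 h. Of the 256 it called 105 lower in knockout at 12 h and 63 higher in wild type at 24 h against 12 h. The percentile over all mouse miRNAs gave 3, 0, 0 and 3 in the same comparisons, and called 100 of the 256 lower in the first and 47 higher in the last. It turned miR-106b to 0.030 and 0.082 (knockout against wild type at 12 h and untreated) and 0.052 (difference between 12 h responses), miR-25 to 0.068 and 0.13 (knockout against wild type at 12 h, wild type at 24 h) and miR-93 to 0.023 (untreated knockout against wild type).

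Median scaling gave 1 and 2 called for the differences between responses at 12 h and 24 h, 1 in wild type and 2 in knockout at 24 h against 12 h (miR-93 at 0.23 there) and 1 in untreated knockout against wild type. Of the 256 it called 13 and 15 for those differences, 2 and 20 higher at 24 h against 12 h, and 31 in untreated knockout against wild type. It turned miR-25 to 0.30 and miR-93 to 0.014 in knockout at 12 h, miR-25 to 0.060 in wild type at 24 h and 0.039 for knockout against wild type at 12 h, and miR-106b to 0.0015 in the latter.

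Without the intensity trend 1 member was called for each difference between responses, 2 in untreated knockout against wild type and 1 at 24 h. In that fit 14 and 16 of the 256 were called for the differences at 12 h and 24 h. For knockout against wild type it called 34 untreated and 24 at 24 h. Testing all mouse miRNAs gave 0 in knockout at 24 h, 1 for the difference between 24 h responses and 1 in untreated knockout against wild type. Of the 611 miRNAs 23, 7 and 26 were called in these comparisons. The lower floor, and the test of the 95 alone, gave 1 in wild type at 24 h against 12 h, where they called 6 of the 256 and 4 of the 95 higher. A percentile without members and relatives (chosen after seeing the data, like the next) gave 2 in knockout at 12 h, 1 for the difference between 24 h responses and 2 in untreated knockout against wild type, and turned miR-25 to 0.092 in wild type at 24 h and -0.14 for knockout against wild type at 24 h. Of the 256 it called 131 in knockout at 12 h, 19 for the difference between 24 h responses and 40 in untreated knockout against wild type. The brighter probe alone and the outlier spots kept turned miR-25 in wild type at 24 h to 0.060 and 0.011.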
